A study of Homo sapiens with 3 samples.

Results

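The clustered protocadherins are cell-surface adhesion proteins of the cadherin superfamily, encoded by 3 neighbouring gene clusters, alpha, beta and gamma, on the long arm of human chromosome 5. Their counts were examined in A375 melanoma cells exposed to the secretome of young or old adipocytes. Members were taken by gene symbol: every symbol made of PCDH, a letter or letters for the cluster (A, B, GA, GB or GC), an optional C and a number. This rule found 54 of the 58037 genes in the count file, 16 alpha, 16 beta and 22 gamma. In the library exposed to old adipocyte secretome the summed count of each cluster was lower than in control, by a ratio of 0.754 for alpha, 0.712 for beta and 0.563 for gamma. The family was chosen after lower counts in that library had been seen, so its values are a description and carry no test.

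A375 is an established human melanoma cell line. The control cells were kept in serum-free DMEM, the YA cells in serum-free DMEM conditioned by young adipocytes and the OA cells in serum-free DMEM conditioned by old adipocytes, and all 3 groups share the serum-free base medium. The adipocytes had been differentiated in culture from human cells, and how many donors supplied the secretome used here was not given in the sources used here. Exposure lasted 24 h per the series description, although the treatment protocol allows up to 48 h. Each group had 1 library, so no difference below has a replicate check, and no p-value was computed. Total counts ranged from 18089008 with OA to 21448195 with control. Throughout, a run of 3 values is in the order control, YA, OA. Of 9 melanocyte lineage markers, SOX10 had 0 counts in all 3 libraries and TYR 2, 0 and 0, whereas MITF had 1221, 764 and 881 and S100B 843, 591 and 550. Of the pigment genes, PMEL had 2, 10 and 10, MLANA 22, 18 and 16, DCT 2, 1 and 2 and TYRP1 6, 3 and 3, and S100A1 had 19, 30 and 15. SOX10 and TYR were thus at or near 0 in cells labelled as melanoma. Of the 9 markers 3 passed the filter on low counts given below, and the 9 together had 98.7, 66.5 and 81.7 counts per 1000000.

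Clustered protocadherins are best known from neurons, where each cell displays its own combination of isoforms and like combinations recognise each other across membranes, which keeps the branches of one neuron apart. Each alpha and gamma gene has its own promoter and a large first exon for the ectodomain, spliced to constant exons that all genes of that cluster share, while beta genes consist of a single exon. A promoter is chosen when CTCF and cohesin loop it to a distant enhancer, and promoters that are not chosen are held silent by DNA methylation and by silencing factors such as SMCHD1. Most of these promoters carry a conserved sequence element with the core CGCT. Isoforms of the C type stand apart: neurons express them constitutively rather than by random choice.

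The alpha cluster spanned 226.2 kb (chr5:140786136-141012347), the beta cluster 198.2 kb (chr5:141051135-141249365) and the gamma cluster 182.4 kb (chr5:141330571-141512981), all on the forward strand of GRCh38 in GENCODE release 29. Every beta gene formed 1 exon block, and every gamma gene 4 to 6. At least 2181 bases of each gamma gene's exons were annotated to another gene as well. How reads of such shared exons were assigned was not given in the sources used here. PCDHGC5 had 0 counts in OA, where the gamma genes together had 2467, so reads of the shared exons had not been credited to every gamma gene. Likewise PCDHA13 had 12 counts in OA, where the alpha genes together had 1037. How much of any other member's count, that of PCDHGC3 included, came from shared exons was not tested. Near-identical coding sequence among beta genes can also split reads, and without a stated strand, reads of a gene and of an antisense partner could not be told apart. Of 13 antisense genes annotated inside the clusters, 5 had any count and 0 passed the filter on low counts.

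Promoter sequence is shown first because promoter choice is how these genes are regulated. RefSeq promoter windows (GRCh38.p14, from 250 bases before to 50 bases after a gene's start) were found for 47 of the 54 members. The other 7 are PCDHA3, PCDHA13, PCDHA14, PCDHB6, PCDHB11, PCDHGA12 and PCDHGC5. The core CGCT, read on either strand, was present in the windows of 46 of these 47 members (97.9%), against 71.9% of 27305 genes with a window. PCDHA9 was the exception. All words of 9 bases were then counted on both strands in each cluster, and the word held by most members contained CGCT in each case. In alpha it was GATGTCGCT, held by 9 of 13 members (69.2%) and 0.128% of all genes. In beta it was GGTGGCGCT, held by 13 of 14 members (92.9%) and 0.619% of all genes, with PCDHB1 the member without it. In gamma it was GCGCCGCTG, held by 10 of 20 members (50%) and 1.59% of all genes. None of the 3 words occurred in a window of another cluster. The words were picked because they were frequent, so their shares are descriptions, and a match is not a binding site.

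Below are the 250 bases before the start of 4 members, 5′ to 3′ on the forward strand, with the word of the cluster in capitals: PCDHA6, the alpha gene with most counts (chr5:140827710-140827959), PCDHB5, the beta gene with most counts among those with a window (chr5:141134956-141135205), PCDHGB5, whose counting interval lay furthest from 1 (chr5:141397697-141397946), and PCDHGC3, the gamma gene with most counts, whose window lacks the gamma word (chr5:141475716-141475965).
PCDHA6: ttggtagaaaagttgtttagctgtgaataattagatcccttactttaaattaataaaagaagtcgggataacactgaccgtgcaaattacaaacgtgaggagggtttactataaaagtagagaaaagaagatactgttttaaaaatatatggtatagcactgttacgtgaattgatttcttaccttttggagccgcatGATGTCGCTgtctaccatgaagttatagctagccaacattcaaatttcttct
PCDHB5: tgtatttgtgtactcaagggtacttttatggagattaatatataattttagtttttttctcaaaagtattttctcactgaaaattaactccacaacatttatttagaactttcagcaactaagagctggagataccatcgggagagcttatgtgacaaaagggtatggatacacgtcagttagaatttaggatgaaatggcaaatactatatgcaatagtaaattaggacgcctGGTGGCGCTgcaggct
PCDHGB5: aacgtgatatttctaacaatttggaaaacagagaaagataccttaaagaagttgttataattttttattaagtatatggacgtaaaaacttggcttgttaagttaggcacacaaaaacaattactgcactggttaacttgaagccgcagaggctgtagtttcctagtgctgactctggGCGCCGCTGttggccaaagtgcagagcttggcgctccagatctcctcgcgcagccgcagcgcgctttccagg
PCDHGC3: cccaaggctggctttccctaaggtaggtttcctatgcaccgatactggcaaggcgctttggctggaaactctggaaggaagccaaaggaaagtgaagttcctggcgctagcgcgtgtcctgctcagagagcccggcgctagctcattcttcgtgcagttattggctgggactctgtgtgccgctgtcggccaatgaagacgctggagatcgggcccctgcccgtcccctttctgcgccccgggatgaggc
The word starts at base 199 of the PCDHA6 sequence, base 235 of PCDHB5 and base 179 of PCDHGB5, counted from 1 at the 5′ end. PCDHGC3 holds CGCT 6 times over both strands of these 250 bases without the full gamma word, PCDHGB5 holds it 4 times, and PCDHA6 and PCDHB5 hold it once each. GC content was 34.0% for PCDHA6, 35.2% for PCDHB5, 44.4% for PCDHGB5 and 60% for PCDHGC3. Of the members, 5 have 2 windows, PCDHGB5 among them, and its values above are those of the printed window. The 250 bases of its other window (chr5:141397878-141398127) hold CGCT 6 times without the gamma word, with a GC content of 56.8%.

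Counts were present for most of the family rather than for a few members, though many were low. A count was present for 53 of the 54 members in control and in YA and for 52 in OA. Over all 58037 genes of the file, 27468, 26954 and 25234 had a count. The median member lay at 0.95, 0.91 and 0.57 counts per kilobase of unshared exon and per 1000000 counts. PCDHA14, which GENCODE lists as a pseudogene, had 0 counts throughout. All 2298 bases of its exon were annotated to another gene as well, so its 0 cannot be read as absence of its RNA. Per 1000000 counts of a library, the members together took 448.6 with control, 394.1 with YA and 284.9 with OA. A mean normalised count of at least 20 over the libraries was reached by 14413 of the 58037 genes in the file. Of the members 44 reached it, 14 alpha, 14 beta and 16 gamma. The 10 that missed it were PCDHA13, PCDHA14, PCDHB1, PCDHB3, PCDHGA3, PCDHGA5, PCDHGA8, PCDHGA11, PCDHGC4 and PCDHGC5. None of these 10 exceeded 29 counts in any library, and their sums were 125, 156 and 47 counts.

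PCDHGC3, a C-type gamma isoform, stood far above the other members. Per kilobase of exon that no other gene shares and per 1000000 counts, its level was 52.7, 40.3 and 30.9. On the same scale PCDHB6 was at 7.63, 7.98 and 7.59, PCDHB5 at 6.59, 5.78 and 4.77, and PCDHA6 at 5.17, 6.06 and 5.09. The median gamma member lay at 0.776, 0.622 and 0.281, so the lead of PCDHGC3 was not shared by its cluster. The share of gamma counts taken by PCDHGC3, with its 95% Wilson interval, was 70.4% for control (69.2 to 71.7), 64.7% for YA (63.3 to 66.1) and 73.6% for OA (71.8 to 75.3). If its count included reads of the constant exons, its level per own exon length is too high.

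Alpha and beta counts were spread over more genes. PCDHA6 made up 22.1% of the alpha sum for control (20.1 to 24.2), 25.8% for YA (23.7 to 28.0) and 29% for OA (26.3 to 31.9). PCDHB6 made up 19.0% of the beta sum for control (17.6 to 20.5), 22.3% for YA (20.7 to 23.9) and 26.7% for OA (24.6 to 28.9). The control and OA intervals did not overlap for either gene, and both gained share in OA while their own normalised counts stayed within 1.2-fold of control. These intervals, like those that follow, hold counting error alone: reads were amplified without molecular identifiers, so they are not independent draws of molecules, and what is compared is single libraries.

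**Figure D1:**
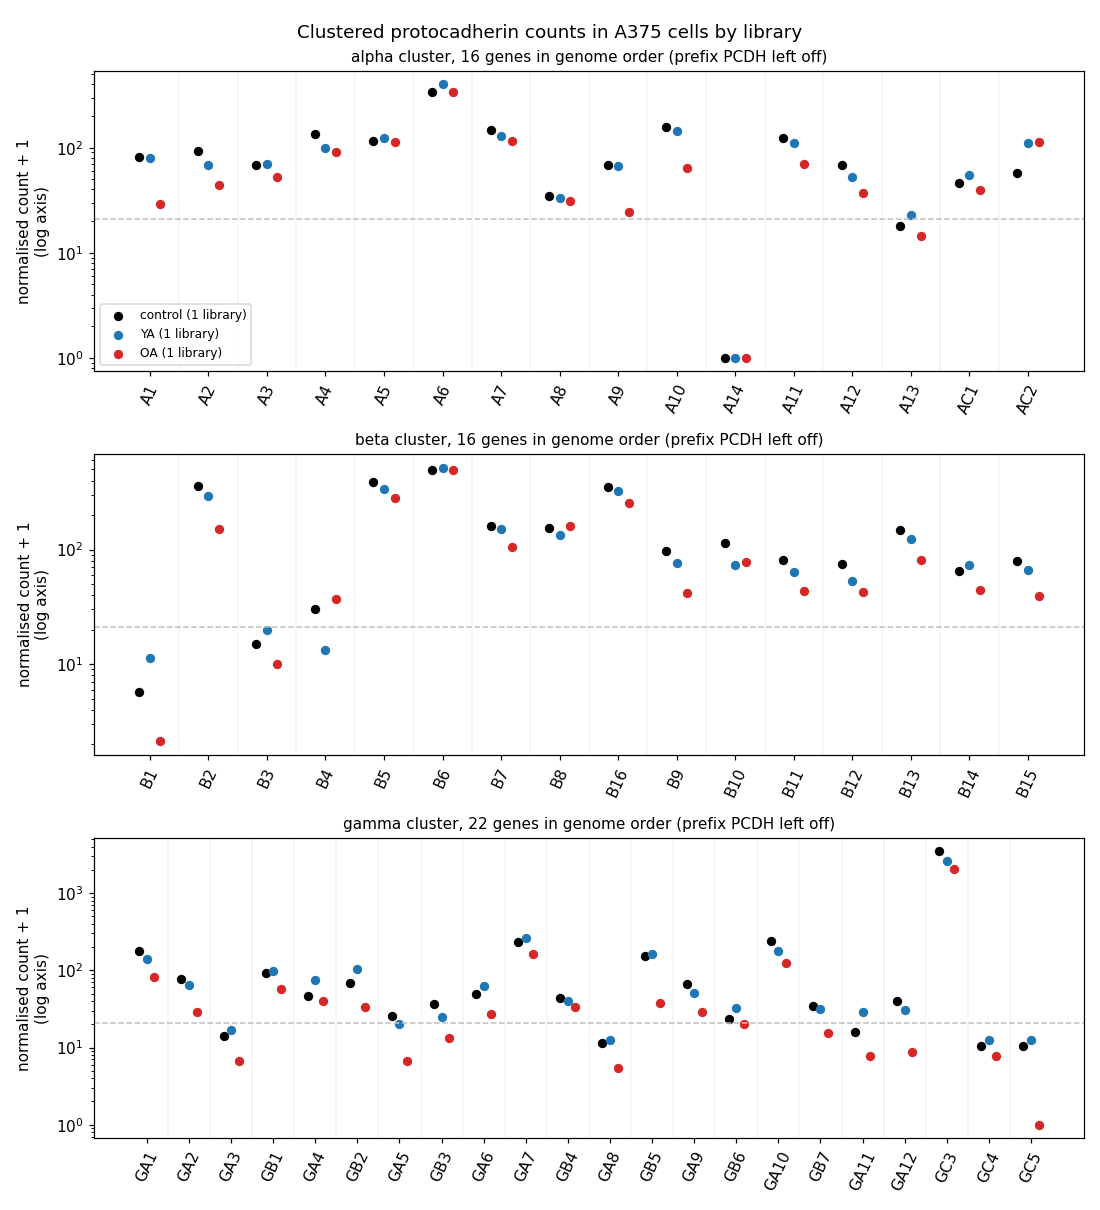
Normalised counts plus 1 (log axis) of the 54 clustered protocadherins in genome order, 1 panel per cluster and 1 point per library (control black, YA blue, OA red); the dashed line marks a normalised count of 20 plus the added 1. PCDHGC3 lies above all other members in each library, and the red OA point is the lowest of the 3 for every gamma member that passed the filter.

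Summed over a cluster, counts were lower in OA than in control for all 3 clusters. Ratios are of counts divided by size factors, and the range in brackets is a 95% Clopper-Pearson interval for the 2 libraries' counts. The alpha genes had 1639, 1637 and 1037 counts. Alpha was level in YA, at a ratio of 1.00 to control (0.935 to 1.07), and lower in OA, at 0.754 (0.697 to 0.815). The beta genes had 2761, 2449 and 1650 counts. For beta the ratio to control was 0.890 in YA (0.842 to 0.940) and 0.712 in OA (0.669 to 0.757), so both secretome libraries were below control and OA lay lower. The gamma genes had 5221, 4311 and 2467 counts. Gamma showed the largest difference of the 3 clusters, with ratios to control of 0.828 in YA (0.795 to 0.862) and 0.563 in OA (0.536 to 0.591). Over all members the ratio was 0.875 in YA (0.850 to 0.902) and 0.638 in OA (0.617 to 0.660). In bulk RNA, fewer cells that express a gene and less of its RNA per cell cannot be told apart.

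Leaving out PCDHGC3 brought the gamma sum level with control in YA, whereas in OA the sum stayed lower. Without PCDHGC3 the gamma genes had 1544, 1521 and 652 counts, a ratio of 0.988 in YA (0.920 to 1.06) and of 0.503 in OA (0.458 to 0.552). PCDHGC3 still held much of the OA difference in the full sum. Its normalised count was 3465 in control and 2037 in OA, within gamma sums of 4920 and 2769. The A and B types of gamma genes, which differ in their variable exons, were both lower in OA. Gamma A genes had 1050, 983 and 464 counts and an OA ratio of 0.526 (0.471 to 0.588). Gamma B genes had 474, 514 and 182 counts and an OA ratio of 0.457 (0.383 to 0.544). The alpha cluster was likewise uneven: PCDHA1 to PCDHA14 had 1531, 1465 and 904 counts and an OA ratio of 0.703 (0.647 to 0.764), whereas the C-type genes PCDHAC1 and PCDHAC2 had 108, 172 and 133. The C-type alpha sum was higher than in control by a ratio of 1.60 in YA (1.25 to 2.05) and 1.47 in OA (1.13 to 1.91). In OA this came from PCDHAC2, at a ratio of 1.97 (1.41 to 2.76), whereas PCDHAC1 was at 0.844 (0.527 to 1.34).

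**Figure D2:**
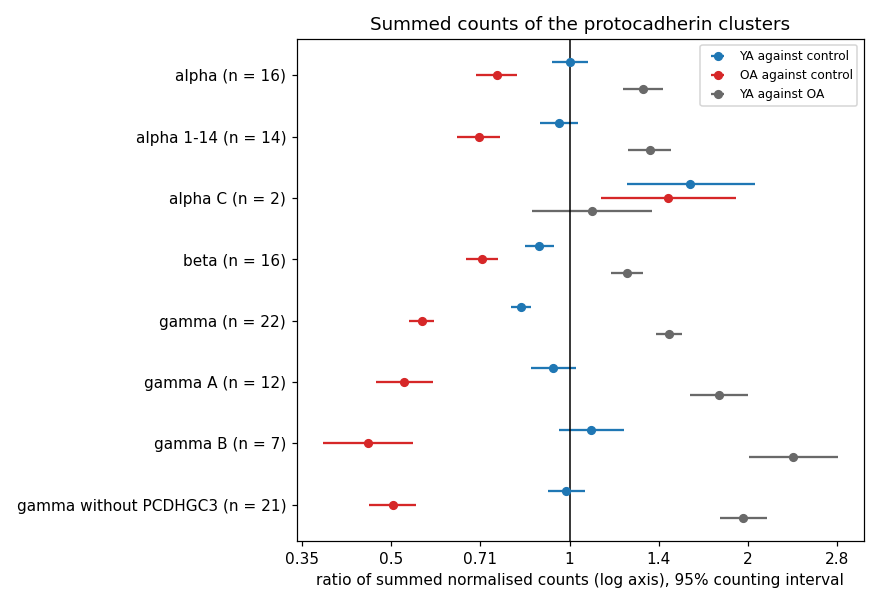
Ratios of summed normalised counts (log axis, line at 1) for the protocadherin clusters and their subgroups, for YA against control (blue), OA against control (red) and YA against OA (grey); bars are 95% counting intervals and n is the number of genes summed. Every red point lies below 1 except that of the C-type alpha genes, at 1.47, of which PCDHAC2 was higher in OA and PCDHAC1 was not.

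Compared with all genes tested, the members were low in OA. Of the 44 that passed the filter, 34 were below control in OA by 1.2-fold or more, against 21.5% of the 14413 genes tested, and 2 were above it by as much, against 21.1%. An interval wholly below 1/1.2 was found for 21 members, against 9.08% of genes, and one wholly above 1.2 for 1 member, PCDHAC2, against 9.04%. The median log2 fold change in OA was -0.79 over the 44 members and 0.01 over all genes tested. By cluster it was -0.47 for alpha, -0.59 for beta and -0.99 for gamma, values at or below which 11.5%, 8.81% and 3.80% of all genes lay. These fold changes were computed after adding a pseudocount of 1 to each normalised count. At least 2-fold lower were 15 members, 4 alpha, 3 beta and 8 gamma, against 3.71% of all genes tested.

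In YA the members lay closer to control. Of the same 44, 18 were below control by 1.2-fold or more, against 16.4% of all genes, and 5 above it by as much, against 17.4%. Only 2 members, PCDHB4 and PCDHGC3, had an interval wholly below 1/1.2, against 4.44% of genes, and only PCDHAC2 had one wholly above 1.2, against 6.03%. Members had a median log2 fold change of -0.17 and all genes one of -0.02. By cluster it was -0.07 for alpha, -0.28 for beta and -0.14 for gamma, and the gamma value turned to 0.08 when members with low counts were kept. The control library enters both comparisons, so the 2 sets of ratios are not independent of each other.

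**Figure D3:**
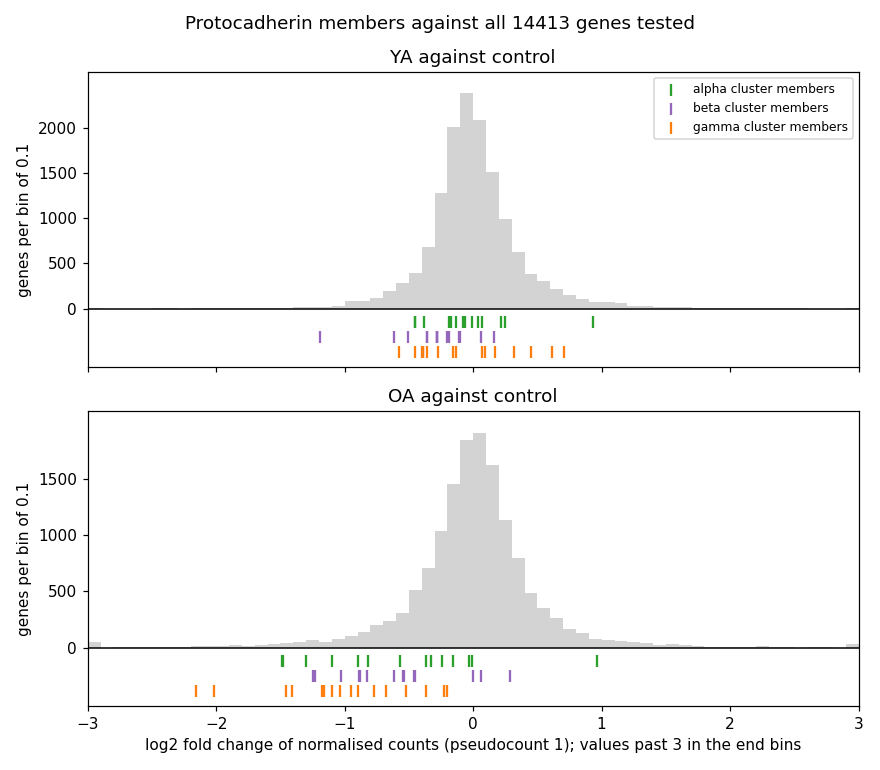
Histograms of the log2 fold change of normalised counts over the 14413 genes tested (grey, genes per bin of 0.1), for YA against control above and OA against control below, with 1 tick per protocadherin member in rows by cluster. In the OA panel most ticks lie left of 0, with medians of -0.47 for alpha, -0.59 for beta and -0.99 for gamma.

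Order among the 3 libraries gave the same picture for nearly every member. OA held the lowest normalised count for 40 of the 44 members (90.9%), namely 13 of 14 alpha, 11 of 14 beta and 16 of 16 gamma. Over all genes tested OA was lowest for 36.1%. YA was lowest for 3 members, all beta, and control for 1, PCDHAC2, against 4954 and 4252 of the 14413 genes tested. The highest count fell in control for 28 members, in YA for 13 and in OA for 3. Over all genes tested it fell in control for 4571, in YA for 4292 and in OA for 5550.

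Within alpha, 6 of 14 members had an OA interval wholly below 1/1.2. PCDHA1 had 85, 84 and 25 counts, a ratio of OA to control of 0.350 (0.215 to 0.553). Control and YA were alike and OA was the low library. PCDHA9, with 72, 69 and 21 counts, gave a ratio of 0.347 (0.203 to 0.572), and PCDHA10, with 166, 151 and 56, one of 0.402 (0.291 to 0.547). All 3 had the same order, with YA within 1.2-fold of control. PCDHA2 had 98, 71 and 38 counts and a ratio of 0.462 (0.309 to 0.678). PCDHA11 had 131, 116 and 62 and a ratio of 0.564 (0.410 to 0.768), and PCDHA12 had 72, 55 and 32 and a ratio of 0.529 (0.338 to 0.814). In these last 3 genes YA lay between the other libraries.

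The remaining alpha members, PCDHAC2 aside, showed smaller differences in OA. PCDHA6 had 362, 422 and 301 counts, ratios of 1.17 in YA (1.01 to 1.35) and 0.991 in OA (0.847 to 1.16). Its neighbour PCDHA5 had 123, 129 and 101 counts, and PCDHA8 had 36, 34 and 27. PCDHA5, PCDHA6 and PCDHA8 thus lay within 1.2-fold of control in OA. PCDHA3 had 71, 73 and 46 counts, PCDHA4 142, 103 and 80, PCDHA7 155, 135 and 103, and PCDHAC1 48, 57 and 34. Intervals of these 4 genes reached within 1.2-fold of control in OA. PCDHAC2, the last C-type gene of the cluster, went the other way with 60, 115 and 99 counts. Both secretome libraries were above control, by a ratio of 1.92 in YA (1.40 to 2.67) and 1.97 in OA (1.41 to 2.76), and the YA and OA libraries did not differ beyond counting error (0.978, 0.741 to 1.29). PCDHAC2 took 3.66% of alpha counts in control (95% Wilson interval 2.86 to 4.68) and 9.55% in OA (7.91 to 11.5).

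Within beta, 5 of 14 members had an OA interval wholly below 1/1.2. PCDHB2 had 378, 311 and 133 counts, a ratio of OA to control of 0.419 (0.341 to 0.512). It was among the most counted beta genes in control, and its share of beta counts was 13.7% there (95% Wilson interval 12.5 to 15.0) and 8.06% in OA (6.84 to 9.47). PCDHB9, with 102, 79 and 36 counts, gave a ratio of 0.420 (0.279 to 0.620). PCDHB15, with 84, 69 and 34, gave 0.482 (0.314 to 0.726). PCDHB11 and PCDHB13 were lower by less: PCDHB11 had 85, 66 and 38 counts with a ratio of 0.533 (0.353 to 0.789), and PCDHB13 had 157, 129 and 71 with a ratio of 0.539 (0.401 to 0.717). In each of these 5 genes the order was control, YA, OA.

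The most counted beta gene, PCDHB6, had 525, 545 and 440 counts, with ratios of 1.04 in YA (0.922 to 1.18) and 0.998 in OA (0.878 to 1.14). Its interval lay inside 1.2-fold on both sides in both secretome libraries. PCDHB8, with 162, 140 and 142 counts, also lay within 1.2-fold of control in OA, at a ratio of 1.04 (0.828 to 1.32). PCDHB4 was the beta gene with a low YA library: it had 31, 13 and 32 counts, a YA ratio of 0.421 (0.202 to 0.827). Counts between these extremes were 411, 358 and 251 for PCDHB5 and 369, 342 and 227 for PCDHB16. PCDHB7 had 171, 158 and 93, PCDHB10 had 119, 77 and 68, PCDHB12 had 79, 55 and 37, and PCDHB14 had 68, 76 and 39. All 6 were at least 1.2-fold lower in OA with an interval that reached within 1.2-fold of control, and for PCDHB12 its upper end, 0.834, lay just inside.

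Within gamma, 10 of 16 members had an OA interval wholly below 1/1.2, and none of the 16 was higher in OA than in control. PCDHGB5 had 163, 171 and 33 counts. Control and YA differed by less than counting error, at a ratio of 1.05 (0.844 to 1.31), and OA was at 0.241 of control (0.161 to 0.352). PCDHGA12 had 41, 31 and 7 counts and the lowest OA ratio of the members that passed the filter, 0.203 (0.0770 to 0.458), from few counts. PCDHGB2, with 72, 110 and 29 counts, was higher in YA and lower in OA, at ratios of 1.53 (1.13 to 2.09) and 0.480 (0.301 to 0.748). PCDHGA1 had 188, 146 and 73 counts and an OA ratio of 0.463 (0.348 to 0.609), PCDHGA2 had 81, 67 and 25 and a ratio of 0.368 (0.225 to 0.582), and PCDHGA10 had 256, 186 and 111 and a ratio of 0.517 (0.410 to 0.648). These genes stepped down from control to YA to OA. PCDHGB3 had 38, 25 and 11 counts, PCDHGA9 69, 52 and 25, and PCDHGB7 36, 32 and 13, with OA ratios of 0.345 (0.159 to 0.688), 0.432 (0.262 to 0.691) and 0.430 (0.209 to 0.831).

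PCDHGC3 had 3677, 2790 and 1815 counts, the deepest coverage of the family. Its ratio to control was 0.761 in YA (0.724 to 0.800) and 0.588 in OA (0.556 to 0.622), and it was the single member with both intervals wholly below 1/1.2. The other 6 gamma members that passed had OA intervals reaching within 1.2-fold of control. PCDHGA7 had 248, 279 and 145 counts, PCDHGB1 96, 102 and 50, PCDHGA6 52, 65 and 23, PCDHGA4 48, 79 and 35, PCDHGB4 45, 41 and 29, and PCDHGB6 24, 33 and 17. YA was the highest library for 5 of these 6, PCDHGB4 being the exception. Among gamma members that missed the filter, PCDHGA5 had 26, 20 and 5 counts, an OA ratio of 0.229 (0.0687 to 0.606). PCDHGC5, with 10, 12 and 0 counts, was lower in OA by at least 2.80-fold against control when OA is set to a floor of 3 counts.

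**Figure D4:**
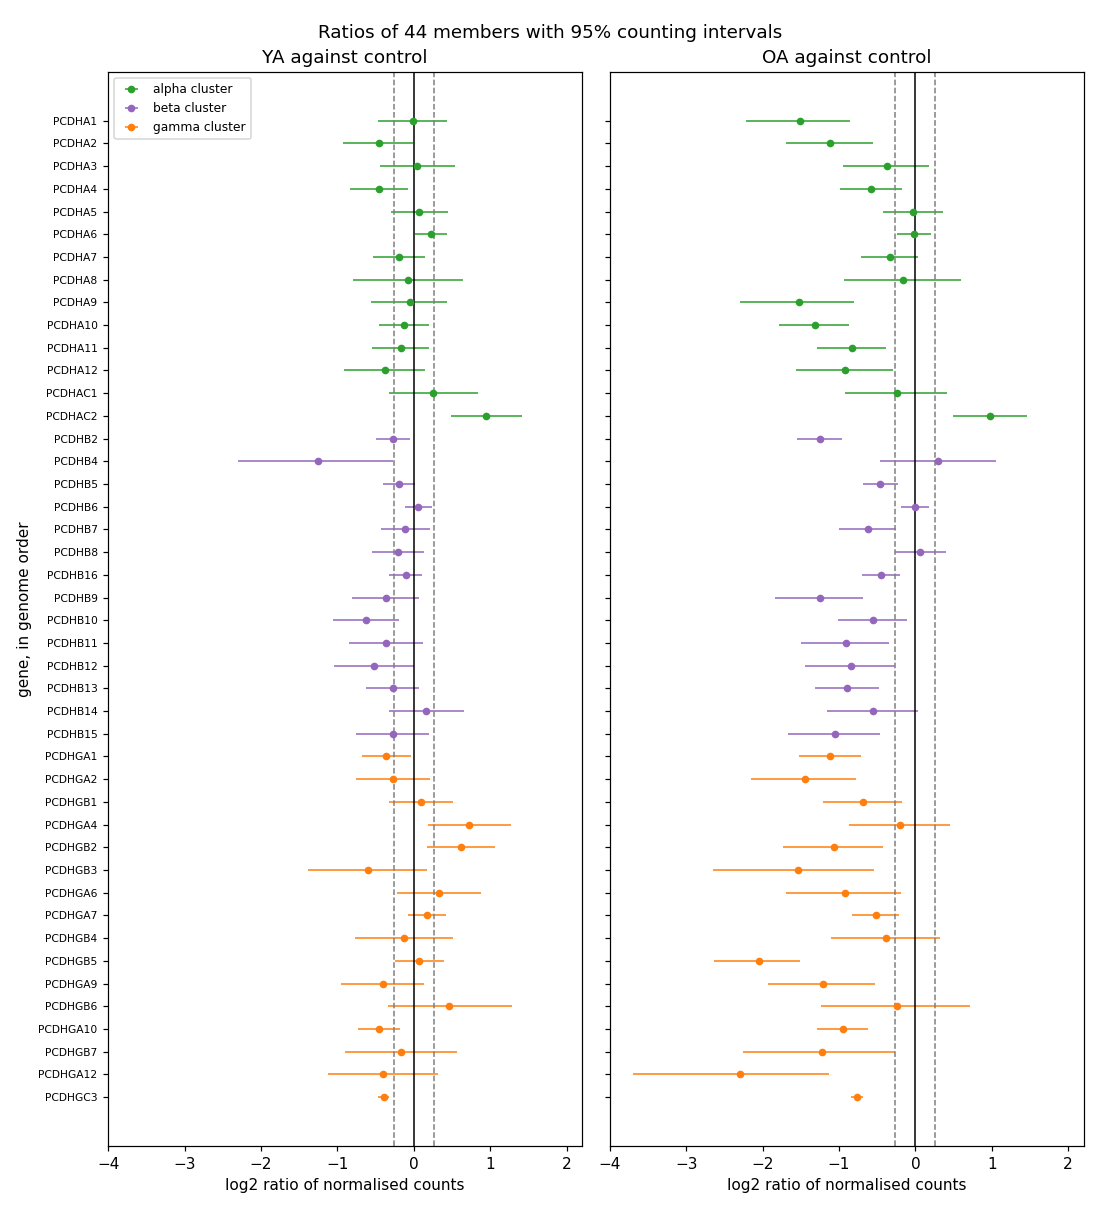
Log2 ratios of normalised counts with 95% counting intervals for the 44 protocadherins that passed the filter, in genome order from top to bottom, for YA against control (left) and OA against control (right); dashed lines mark 1.2-fold and colours mark the cluster. On the right 21 intervals lie wholly left of the dashed lines and that of PCDHAC2 wholly right.

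Young and old secretome were also compared directly. Each cluster sum was higher in YA, by a ratio to OA of 1.33 for alpha (1.23 to 1.44), 1.25 for beta (1.17 to 1.33) and 1.47 for gamma (1.40 to 1.55). Without PCDHGC3 the gamma ratio was 1.96 (1.79 to 2.16). Of the 44 members, 33 were above OA by 1.2-fold or more in YA, against 23.0% of all genes tested, and 2, PCDHB4 and PCDHB8, were below it by as much, against 21.5%. An interval wholly above 1.2 was found for 15 members, 3 alpha, 2 beta and 10 gamma, against 10% of genes, and one wholly below 1/1.2 for PCDHB4, against 9.03%. The ratio of YA to OA was 4.36 for PCDHGB5 (2.99 to 6.54), 3.19 for PCDHGB2 (2.11 to 4.99), 2.83 for PCDHA1 (1.79 to 4.62) and 1.97 for PCDHB2 (1.60 to 2.43). For PCDHB4 it was 0.342 (0.165 to 0.670). PCDHGA4, PCDHGA6, PCDHGA7 and PCDHGB1 had an interval wholly above 1.2 here and none beyond 1.2-fold against control. Their ratios of YA to OA were 1.90 (1.26 to 2.92), 2.38 (1.46 to 4.01), 1.62 (1.32 to 1.99) and 1.72 (1.21 to 2.46). Among members that missed the filter, PCDHGA11 had 16, 29 and 6 counts, a ratio of 4.07 (1.66 to 12.0), and PCDHB1 had 5, 11 and 1, a ratio of 9.26 (1.35 to 398.7) that rests on 1 count in OA.

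Genome position and the promoter words were set beside the OA fold changes. Spearman's rho between genome position and the OA log2 fold change was 0.24 over 14 alpha, -0.34 over 14 beta and -0.11 over 16 gamma members, given without a test because the genes share libraries. Alpha members with GATGTCGCT had a median OA log2 fold change of -0.57 (9 genes) and those without it -0.53 (4 genes). Gamma members with GCGCCGCTG had a median of -0.82 (8 genes) and those with a window but without the word -1.04 (7 genes). The 12 beta members with GGTGGCGCT had a median of -0.58, and no beta member that passed and had a window lacked the word. PCDHGB5, which carries the gamma word in its printed window, and PCDHGC3, which does not, were both lower in OA.

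Genes known to control promoter choice in the clusters were divided in direction. Of 32 regulators, which include CTCF, cohesin subunits and loaders, DNA methyltransferases and silencing factors, 5 were at least 1.2-fold higher and 3 lower in OA, with a median log2 fold change of 0.10. For YA the counts were 4 higher and 1 lower (median 0.03). Over all genes tested 21.1% were higher and 21.5% lower in OA, and 17.4% higher and 16.4% lower in YA. The same shares stand beside the counts of the gene lists that follow. CTCF, the insulator protein that binds the promoters, had 2208, 2172 and 2113 counts, ratios of 0.987 in YA (0.930 to 1.05) and 1.14 in OA (1.07 to 1.21). SMCHD1, which silences the clusters, had 1491, 1608 and 1215 counts and an OA ratio of 0.971 (0.899 to 1.05). Both lay within 1.2-fold of control in their point ratios. MAU2, part of the cohesin loader, was lower in OA with 2925, 3165 and 1896 counts and a ratio of 0.772 (0.728 to 0.818). UHRF1, which guides maintenance DNA methylation, had 3618, 2819 and 3534 counts and was lower in YA at a ratio of 0.782 (0.744 to 0.821). ZNF274, a zinc finger repressor, had 557, 760 and 555 counts and a YA ratio of 1.37 (1.23 to 1.53). ATF7IP, a partner of the methyltransferase SETDB1, had 2104, 2592 and 2273 counts and an OA ratio of 1.29 (1.21 to 1.37). DNMT1, a DNA methyltransferase, had 7499, 8328 and 7903 counts and an OA ratio of 1.255 (1.216 to 1.296).

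Partners and processing enzymes of the protocadherins were even in direction at 1.2-fold in OA but not in YA. Of 28 that passed the filter, 4 were at least 1.2-fold higher and 4 lower in OA (median log2 fold change -0.05), and 4 were higher and 1 lower in YA (median 0.05). An OA interval lay wholly above 1.2 for 0 and wholly below 1/1.2 for 2, against 9.04% and 9.08% of all genes tested. In YA against OA, 4 were higher and 0 lower, against 23.0% and 21.5%. NLGN1, a synaptic adhesion protein, had 334, 223 and 121 counts, an OA ratio of 0.432 (0.348 to 0.533). WASF3, of the WAVE complex that drives actin assembly, had 594, 556 and 299 counts and an OA ratio of 0.600 (0.520 to 0.690). PTK2B, a focal adhesion family kinase, had 94, 129 and 63 counts and was 1.72 times as high in YA as in OA (1.27 to 2.37). TRIM3, a ubiquitin ligase, had 194, 284 and 211 counts and a YA ratio of 1.47 (1.22 to 1.77).

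Genes around the clusters were examined next. Of 20 neighbouring genes that passed the filter, 0 were at least 1.2-fold higher and 3 lower in OA (median log2 fold change -0.08), and 2 were higher and 3 lower in YA (median -0.05). TAF7, a subunit of the general factor TFIID that lies between beta and gamma, had 3462, 3355 and 2699 counts, an OA ratio of 0.929 (0.883 to 0.977). SLC25A2, a mitochondrial carrier gene beside it, had 0 counts in all 3 libraries. SPRY4, a feedback inhibitor of receptor tyrosine kinase signalling further along the chromosome, was the lowest of the 20 in OA. It had 7526, 5431 and 1544 counts and an OA ratio of 0.244 (0.231 to 0.258). APBB3 and KIAA0141 were also at least 1.2-fold lower in OA. APBB3 had 137, 197 and 85 counts and an OA ratio of 0.739 (0.557 to 0.976), and was 1.95 times as high in YA as in OA (1.51 to 2.55). KIAA0141 had 1808, 1973 and 1194 counts and an OA ratio of 0.787 (0.731 to 0.847). FCHSD1, with 320, 468 and 258, had a YA ratio of 1.47 (1.27 to 1.70). Within 1 Mb of the clusters, 4 of 35 other genes tested were higher and 8 lower in OA (median -0.09). Over 667 genes of chromosome 5 the counts were 154 higher and 148 lower, with a median of 0.00.

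Other single-exon genes were set beside the beta genes, which share that structure. Past 1.2-fold in OA, 76 of 275 other single-exon protein-coding genes were higher and 56 lower, with a median log2 fold change of 0.02, against -0.59 for the beta members. For YA these were 51 higher and 77 lower, median -0.06. Of 4 cluster pseudogenes in the file, 2 passed the filter, both of the beta cluster. PCDHB17P had 108, 132 and 92 counts, an OA ratio of 1.02 (0.760 to 1.35). PCDHB18P had 41, 28 and 14 counts and an OA ratio of 0.407 (0.205 to 0.762).

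Protocadherins outside the clusters varied in direction in OA, and none that passed the filter was at least 1.2-fold higher in YA. PCDH1 and PCDH12 lie within 1 Mb of the clusters on chromosome 5 but were kept in this list, not among the 20 neighbouring genes. Their OA ratios were 0.795 (0.742 to 0.852) and 0.556 (0.272 to 1.08). Of 8 that passed the filter, 3 were at least 1.2-fold higher and 4 lower in OA. In YA all 8 had a log2 fold change below 0, with 0 at least 1.2-fold higher and 4 lower. A YA interval wholly below 1/1.2 was found for 2 of them, against 4.44% of all genes tested. PCDH17, at -0.02 in YA, lay at the median of all genes. The median log2 fold change was -0.27 in OA and -0.27 in YA. PCDH9 had 551, 374 and 230 counts, an OA ratio of 0.497 (0.425 to 0.581). PCDH10 and PCDH17 went the other way: PCDH10 had 652, 550 and 894 counts and an OA ratio of 1.63 (1.48 to 1.81), and PCDH17 had 298, 293 and 417 and a ratio of 1.67 (1.43 to 1.94). PCDH15, a component of hair cell tip links, had 29, 11 and 32 counts and a YA ratio of 0.380 (0.172 to 0.785). Classical cadherins and relatives were also mixed. Of the 8 tested, 2 were at least 1.2-fold higher and 4 lower in OA (median -0.22), and 3 were higher and 2 lower in YA (median -0.19). Their cytoplasmic partners CTNNA1, CTNNB1, CTNND1 and JUP, of the same list, lay within 1.2-fold of control in both, and with them the list of 12 had a median of -0.13 in OA and -0.09 in YA. CDH19 had 1456, 1245 and 569 counts and an OA ratio of 0.466 (0.422 to 0.513), and CDH13, a cadherin without a cytoplasmic tail, had 4665, 4047 and 2327 and a ratio of 0.594 (0.565 to 0.625). CDH11, a mesenchymal cadherin, was higher in OA with 98, 69 and 131 counts and a ratio of 1.59 (1.22 to 2.09), as was CDH24 with 157, 247 and 234 counts and a ratio of 1.78 (1.44 to 2.19).

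Marker genes of other cell types were counted in the same libraries, and their part in the protocadherin counts was not tested. The 7 adipocyte markers together had 30.9, 56.9 and 21.6 counts per 1000000, an order of YA and OA that the clusters share, and 3 of the 7 passed the filter. ADIPOQ, with 1, 0 and 0 counts, and LEP, with 0 throughout, define the cell type best and were at or near 0, PLIN1 had 2, 5 and 2 counts and FABP4 16, 15 and 2. Most of the sum came from LPL, a lipoprotein lipase, and PLIN4, a lipid droplet protein. LPL had 353, 583 and 30 counts, ratios to control of 1.66 in YA (1.45 to 1.90) and 0.101 in OA (0.0673 to 0.147). PLIN4 had 284, 579 and 321 counts, ratios of 2.05 (1.77 to 2.37) and 1.35 (1.14 to 1.59). CIDEC, also a lipid droplet protein, had 6, 31 and 36 counts. LPL was thus lowest in OA, as most protocadherins were, whereas PLIN4 and CIDEC were lowest in control.

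The 8 fibroblast markers had 35.0, 44.5 and 30.7 counts per 1000000, and 5 of them passed the filter. PDGFRB, a growth factor receptor, held most of these counts with 515, 568 and 334. DCN, a matrix proteoglycan, had 13, 138 and 24 counts, LUM 66, 101 and 58, and COL1A1 75, 117 and 84. PDGFRA went the other way in YA with 76, 20 and 51 counts, a ratio of 0.264 (0.153 to 0.437). COL1A2, COL3A1 and THY1 had at most 4 counts in any library. The 5 neuron markers had 23.4, 26.4 and 27.6 counts per 1000000, and 3 passed the filter. SYT1, of synaptic vesicles, held most of them with 322, 420 and 331 counts, and SNAP25 had 51, 40 and 100. TUBB3 had 95, 70 and 63 counts, STMN2 19, 17 and 2, and RBFOX3, which encodes the neuronal nuclear antigen NeuN, 15, 16 and 3. After scaling, OA was lowest for STMN2 and RBFOX3, YA for TUBB3 and SNAP25, and control for SYT1.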

How the data were processed

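Poly(A) RNA libraries of A375 cells (Agilent SureSelect) were sequenced on an Illumina NovaSeq. The authors deposited raw counts per gene for 58037 genes in 3 libraries. The submitters' processing notes name STAR 2.5.1b, featureCounts, R 3.6.1 and hg38. Counting options, strand and annotation release were not given in the sources used here.

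Counts were divided by DESeq2 1.42.0 median-of-ratios size factors in R 4.3.3, 1.06 each for control and YA and 0.891 for OA. The fold change was log2((a + 1)/(b + 1)) in the 14413 genes whose mean normalised count reached 20, which held 99.7% of counts. The threshold was 1.2-fold, the cutoff of the study's methods read as a linear fold. Ratios in brackets used no pseudocount, and cluster sums no filter. With 1 library per group, the tests of edgeR and DESeq2 were not possible, and 95% Clopper-Pearson and Wilson intervals cover counting error only. A count of 0 was set to a floor of 3.

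Members and gene lists were chosen with earlier results of these data known. Every member that passed the filter is named with its counts. A ratio is given, in at least 1 comparison, for each member whose interval lay wholly beyond 1.2-fold in any, for the most counted member of each cluster and for a few others described. Up to 4 genes per list are named, those with the interval furthest from 1, and also CTCF, SMCHD1, TAF7 and SLC25A2. ATF7IP and DNMT1 tied for the last place among the regulators at the precision kept, so both are named. PCDHB5 stands in for PCDHB6 among the printed promoters, and PCDHB8 and PCDHGC5 are given with a ratio or bound outside this rule. Every gene of the marker lists, the catenins among the cadherins, and PCDH1 and PCDH12 for their position are named, after their values were seen.

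Positions came from GENCODE 29 (57433 of 58037 identifiers matched) and promoters from RefSeq. Scripts ran in Python 3.11.15 (scipy 1.17.1, pandas 2.3.3, numpy 2.4.6, matplotlib 3.10.9), and the procedure was tested on simulated data. Alternatives were scaling by TMM (edgeR 4.0.16) or by total counts, a correction for length and GC content, other filters, pseudocount and thresholds, and leaving out the most counted member.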

Additional observations from a re-analysis of the deposited data

How the results depend on the processing

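Under TMM and total-count scaling all 9 cluster ratios stayed within their counting intervals, and 8 of the 9 cluster medians kept their direction under every alternative run. The gamma median of YA against control, -0.14, turned to 0.08 without the filter on low counts. Without the most counted member the alpha OA ratio was 0.687, the beta OA ratio 0.645 and the gamma ratios 0.988 for YA, 0.503 for OA and 1.96 for YA against OA. With the correction for length and GC content the gamma ratio of YA to OA was 1.35, and 131 of 132 member fold changes were unchanged within counting error, PCDHGC3 in YA against OA being the exception at a log2 value of 0.24. Counts of members depend on the threshold and the filter. With a minimum mean of 100, which left 18 members, the higher and lower counts were 0 and 6 in YA, 0 and 14 in OA, and 12 and 1 for YA against OA. With a 2-fold threshold they were 0 and 1, 0 and 15, and 9 and 1. With an interval wholly beyond 1.2-fold they were 1 and 2, 1 and 21, and 15 and 1. Without a filter 10 members were higher in YA, against 5. With a pseudocount of 5, 1 member was higher in OA, against 2. The count of members lower in YA than in OA, 2 in the report, was 1 under TMM, total-count scaling, the length and GC correction and a pseudocount of 5. No paired analysis was possible because each group had 1 library, and leaving out a replicate was impossible for the same reason. Depth limits members under about 20 counts most, but intervals that span more than 2-fold also occurred for members with more counts. For PCDHA2, with 98 counts in control and 38 in OA, the OA interval ran from 0.309 to 0.678.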
